A study of Mus musculus with 24 samples.

Results

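Collagen genes are described here across primary neural stem cell cultures from mouse fetal brain kept at low or ambient oxygen. The 44 genes were taken as every gene whose array probe set carried a single symbol of the form Col, number, a, number. They are 44 of the 19938 genes that a single-symbol probe set measured. Col6a5 and Col6a6 had more than 1 probe set, and the one with the highest mean over the 24 arrays stood for the gene. By the structure of their protein the 44 genes fell into 11 fibril-forming chains, 6 basement membrane chains, 9 fibril-associated (FACIT) chains, 6 beaded filament chains, 3 short-chain network chains, 4 transmembrane chains and 2 multiplexins. The remainder were Col7a1 of the anchoring fibrils and the unplaced Col26a1 and Col28a1.

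The cells were dissected from the cortex or the mesencephalon (midbrain) of C57Bl/6 embryos at embryonic day 14, and the labels name no genetic change. They were grown in expansion medium for 48 h or 13 d, either in a low-oxygen gas mixture of 3% O2 or in 21% O2. Region, culture time and oxygen level gave 8 groups of 3 arrays, 1 RNA sample per array. The labels name no sorting of the cells, so each value is an average over a mixed culture, in which fewer cells of a type and less RNA per cell cannot be told apart. Nor do they tell whether the 3 arrays of a group stand for separate cultures or separate animals. The p-values therefore measure only how far these arrays differ, which may be technical.

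Values are log2 expression, and a level is compared only within a gene, since probe sets differ in brightness. Most collagen probe sets were dim. The mean over the 24 arrays lay below 7.79 for 32 collagen genes and above it for 12. The value 7.79 is the median of these means over the 23410 tested probe sets. The part of low signal in the calls, or in the genes that did not pass, was not tested. The median over all probe sets was 7.35 to 7.42 on the 24 arrays, and any pair of arrays of 1 group had a Pearson correlation of 0.986 to 0.999. All 6 midbrain 13 d arrays came from array run 1 and the other 18 from run 2, so the level of midbrain 13 d against any other group is given without a test, because the array run cannot be told apart from the group there. The mean level of 10 neural stem cell and radial glia genes lay between 9.71 and 10.99 over the 24 arrays. The mean of 10 neuron genes was 11.79 to 11.92 in midbrain 48 h and 8.34 to 8.57 in midbrain 13 d, but 8.89 to 9.40 in the cortex arrays labelled 48 h and 11.28 to 11.37 in those labelled 13 d. By these genes the cortex arrays labelled 48 h lay near the midbrain 13 d arrays, and those labelled 13 d near the midbrain 48 h arrays, which goes against the labels if both regions follow the same course. Whether the cortex times are exchanged was not tested. Times are given as labelled, and each comparison between regions is also given with the cortex times crossed. Differences are 3% O2 minus 21% O2 in log2 with their standard error and 3 arrays per group. The words rose and fell are kept for genes whose limma Benjamini-Hochberg adjusted p over 23410 probe sets was under 0.05.

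Collagens are the main structural proteins of the extracellular matrix, and each molecule is a rope of chains wound around one another. Fibril-forming collagens give tissues tensile strength, FACIT collagens sit on the surface of fibrils, and basement membrane collagens form the sheets beneath epithelia and around vessels. The brain holds little fibrillar collagen, and most of its collagen lies in the basement membranes of vessels and in the meninges. New chains are hydroxylated in the endoplasmic reticulum by enzymes that use oxygen, and the genes of some of these enzymes are known targets of the hypoxia-inducible factors (HIF).

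In midbrain cultures kept for 13 d, 15 of the 44 collagen genes (34.1%) rose at 3% O2 and 0 fell. Among all tested probe sets, 11.2% rose and 12.7% fell in the same comparison. The median log2 difference over the 44 genes was 0.07, against -0.01 over all probe sets. By limma's unadjusted p under 0.05 the counts were 17 higher and 0 lower. The share of all probe sets at that unadjusted cut-off is not given, here or for the later comparisons. The unadjusted counts therefore have no background to be read against. The risen genes were 4 of 11 fibril-forming, 4 of 6 basement membrane, 2 of 9 FACIT, 2 of 6 beaded filament and 1 of 3 short-chain network genes, together with the 2 multiplexins. Of the 4 transmembrane genes, Col7a1, Col26a1 and Col28a1, 0 passed. The 29 genes that did not pass ranged from -0.18 for Col9a1 to 0.49 for Col6a3. Without the number 1 or the number 3 array of either oxygen level, taken 1 at a time, 9 genes passed. Over the 6 fits that leave out 1 array, the calls of Col12a1, Col18a1, Col1a1, Col3a1, Col4a2, Col6a2 and Col16a1 were lost in 0, those of Col4a1 and Col6a1 in 1, those of Col5a1 and Col15a1 in 4, and those of Col1a2, Col4a5, Col4a6 and Col8a1 in 5.

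**Figure D1:**
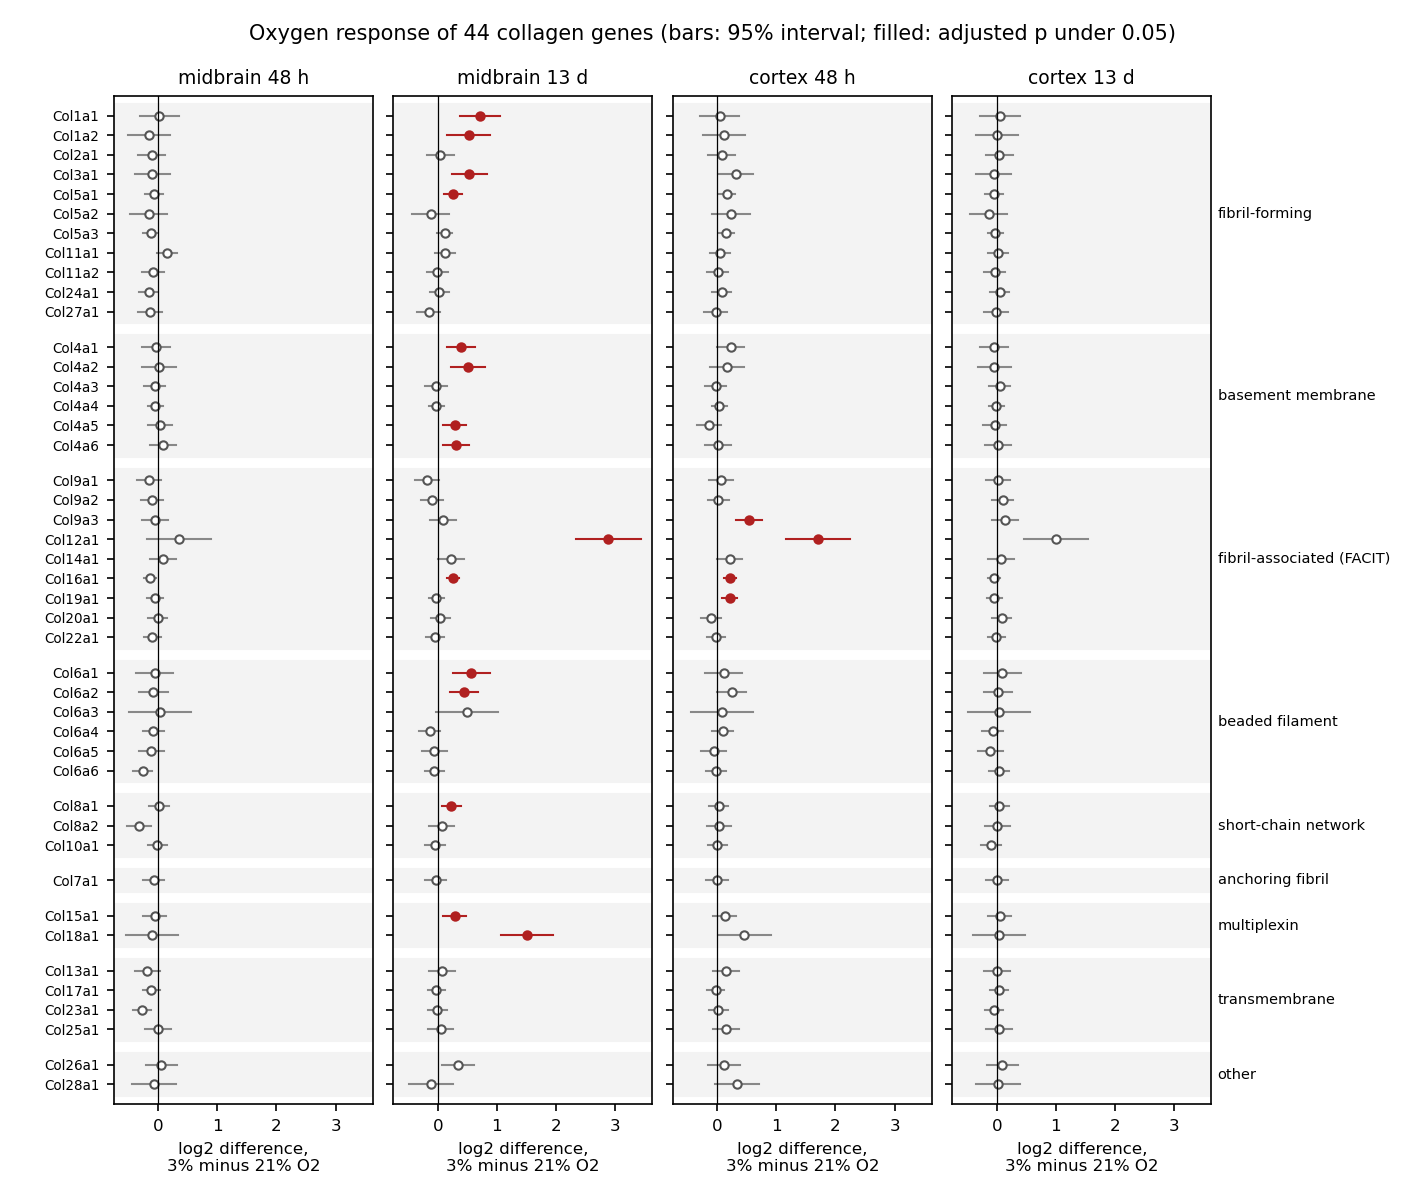
Log2 difference of 3% O2 minus 21% O2 (x axis) for each of the 44 collagen genes (rows, grouped by class) in 4 panels, 1 per region and culture time, with the 95% interval of the limma fit. Filled points passed an adjusted p of 0.05. Filled points are most frequent in midbrain 13 d, with 15 genes, followed by cortex 48 h with 4, and absent from the other panels, and Col12a1 lies furthest to the right in midbrain 13 d at 2.89.

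Among the FACIT genes, Col12a1 made the largest rise of the 44 genes in midbrain 13 d. Type XII collagen binds the surface of fibrils and helps tissue bear load. Its log2 values were 10.86, 10.58 and 10.76 at 3% O2 and 7.66, 7.91 and 7.96 at 21% O2. The lowest array at 3% O2 lay more than 2 log2 units above the highest at 21% O2. The difference was 2.89 ± 0.26 (SE), a 7.40-fold rise with an adjusted p of 1.19e-07 in limma. Col16a1, another FACIT gene, read 8.19, 8.19 and 8.12 against 7.89, 7.91 and 7.93, a small step with a narrow spread and no overlap. It rose by 0.25 ± 0.05 with an adjusted p of 0.000666. The other 7 FACIT genes ranged from -0.18 to 0.23, the ends being Col9a1 and Col14a1. Col9a1 was the only collagen gene in this comparison whose 3 arrays at 3% O2 all lay below those at 21% O2, at 7.43, 7.44 and 7.23 against 7.46, 7.60 and 7.56, and it did not pass.

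The multiplexins are collagens with long interrupted chains found in basement membrane zones, and Col18a1 encodes the precursor of the fragment endostatin. Col18a1 read 9.59, 8.77 and 9.36 at 3% O2 and 7.75, 7.70 and 7.75 at 21% O2 in midbrain 13 d. The arrays at 21% O2 were close together, and all 3 at 3% O2 lay above them. The rise was 1.50 ± 0.21, or 2.84-fold, with an adjusted p of 2.41e-05 in limma. Col15a1 read 7.58, 7.51 and 7.53 against 7.22, 7.36 and 7.17 and rose by 0.29 ± 0.09 (adjusted p 0.0277).

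The fibril-forming genes that rose in midbrain 13 d were Col1a1 and Col1a2, the chains of type I collagen, Col3a1 of type III and Col5a1 of type V. Col1a1 read 8.95, 8.76 and 9.08 at 3% O2 against 8.08, 8.29 and 8.28, and rose by 0.72 ± 0.16 (1.64-fold, limma adjusted p 0.00209). Col3a1 read 8.34, 8.35 and 8.31 against 7.77, 7.85 and 7.78, and rose by 0.54 ± 0.14 (adjusted p 0.00851). Both genes were separated in all 6 arrays. Col1a2 read 8.15, 8.30 and 8.24 against 7.57, 7.80 and 7.75, which gave 0.52 ± 0.17 and an adjusted p of 0.0313. Col5a1 read 8.59, 8.62 and 8.35 against 8.21, 8.38 and 8.20, so that the groups overlapped at 1 array each, and it rose by 0.26 ± 0.07 (adjusted p 0.0116). The other 7 genes of the class, among them the cartilage chains Col2a1, Col11a1 and Col11a2, lay between -0.15 for Col27a1 and 0.12 for Col5a3.

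Of the basement membrane chains, Col4a1 and Col4a2 form the common type IV network of vessels and neural tissue, and Col4a5 and Col4a6 form rarer networks. In midbrain 13 d Col4a1 read 8.20, 8.14 and 8.28 at 3% O2 against 7.78, 7.78 and 7.86. Col4a2 read 8.39, 8.28 and 8.29 against 7.73, 7.92 and 7.77. Neither pair of groups overlapped. Col4a2 rose by 0.52 ± 0.14 (limma adjusted p 0.00774) and Col4a1 by 0.40 ± 0.11 (adjusted p 0.0121). Col4a5 read 7.95, 7.63 and 8.01 against 7.53, 7.59 and 7.63 and rose by 0.28 ± 0.09 (adjusted p 0.0339). Col4a6 read 7.61, 7.13 and 7.52 against 7.06, 7.12 and 7.14, with the number 2 array at 3% O2 inside the range of the other group. It rose by 0.31 ± 0.10 (adjusted p 0.0337), and its adjusted p was 0.0664 with the replicate block, in which arrays of the same number are paired. Col4a3 at -0.03 and Col4a4 at -0.02, whose chains are best known from the kidney filter, did not pass.

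Type VI collagen forms beaded filaments close to cell surfaces. Col6a1 read 8.50, 7.96 and 8.41 at 3% O2 against 7.68, 7.75 and 7.73 at 21% O2 in midbrain 13 d and rose by 0.57 ± 0.15 (1.48-fold, limma adjusted p 0.00833). Col6a2 read 8.36, 8.12 and 8.19 against 7.86, 7.73 and 7.75 and rose by 0.44 ± 0.12 (adjusted p 0.00744). Their partner chain Col6a3 read 7.73, 7.57 and 7.78 against 7.12, 7.25 and 7.25, also without overlap, and its 0.49 did not pass. The level of Col6a3 spread widely between arrays of another group, midbrain 48 h, which enters the same error estimate. Its adjusted p passed in the fit of the compared arrays alone and with the replicate block. Of the short-chain network genes Col8a1 rose by 0.23 ± 0.08 (adjusted p 0.0357), from 6.71, 6.63 and 6.73 to 6.84, 7.00 and 6.92, and its adjusted p was 0.0676 with the replicate block.

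**Figure D2:**
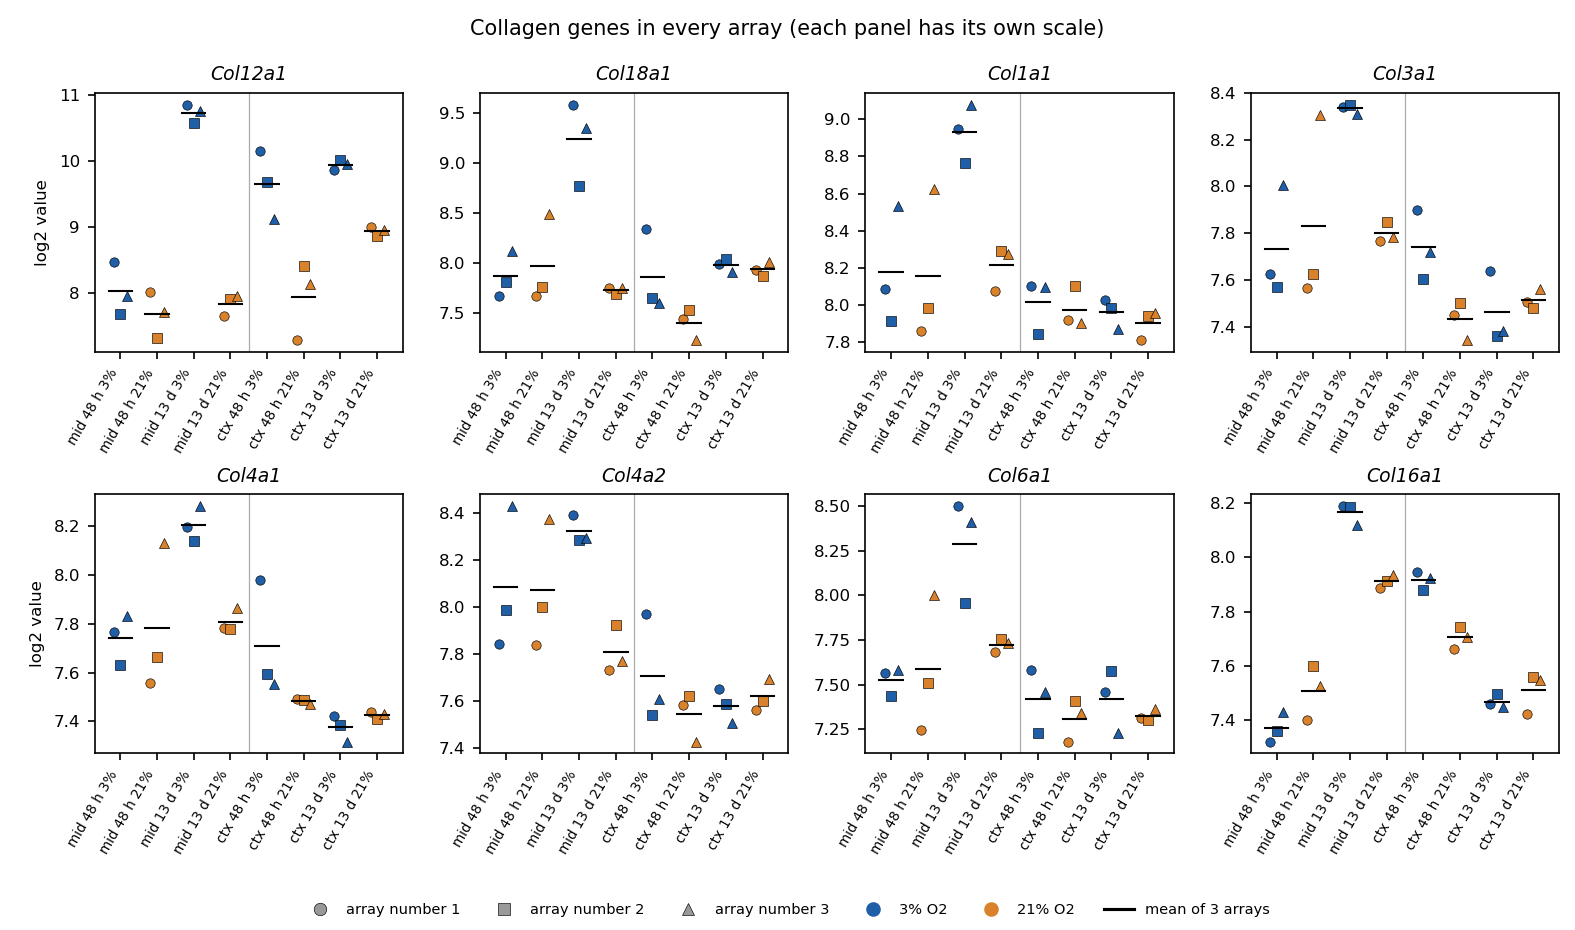
Log2 expression on each of the 24 arrays (y axis, 1 panel per gene) in the 8 groups (x axis) for Col12a1, Col18a1, Col1a1, Col3a1, Col4a1, Col4a2, Col6a1 and Col16a1. Blue marks 3% O2 and orange 21% O2, the marker shape gives the array number and the line the group mean. In midbrain 13 d the blue points lie above the orange ones in all 8 panels, and Col12a1 is separated in this way in cortex 48 h and cortex 13 d as well.

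RefSeq promoter windows (assembly GRCm38.p6, from 250 bases before to 50 after the annotated start) were found for 35 of the 44 genes, 38 windows in all. Col12a1 and Col1a1 were among the 9 genes without one. The letters ACGTG or GCGTG, the core of the HIF binding motif, stood on either strand in 13 collagen windows (34.2%) and in 43.8% of 32851 promoter windows of the same length. By single motif, ACGTG was in 13.2% of the collagen windows against 19.6% of all, and GCGTG in 26.3% against 32.4%. The GC box GGGCGG was in 60.5% against 35.7%, CCAAT in 34.2% against 37.4% and TATAAA in 13.2% against 13.6%. Of the 15 genes that rose in midbrain 13 d, 13 had a window and 6 of these held a HIF core. Of the 29 other collagen genes 22 had a window and 7 held a core. Both Col18a1 windows were without one. To show where the core lies, bases 250 to 51 before the start follow for 3 of the risen genes that hold it, with the core in capitals: Col1a2, the only risen gene with 2 cores, its fibril-forming relative Col5a1, and Col16a1, which rose in both regions. Each is read 5′ to 3′ on the strand of its gene, and a core that lies on the other strand appears as CACGT or CACGC.
Col1a2, chr6:4505368-4505567, plus strand: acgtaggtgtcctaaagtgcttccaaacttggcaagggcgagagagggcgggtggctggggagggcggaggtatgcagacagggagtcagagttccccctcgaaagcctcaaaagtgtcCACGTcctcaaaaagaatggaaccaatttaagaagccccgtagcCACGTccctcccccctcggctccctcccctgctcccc
Col5a1, chr2:27886175-27886374, plus strand: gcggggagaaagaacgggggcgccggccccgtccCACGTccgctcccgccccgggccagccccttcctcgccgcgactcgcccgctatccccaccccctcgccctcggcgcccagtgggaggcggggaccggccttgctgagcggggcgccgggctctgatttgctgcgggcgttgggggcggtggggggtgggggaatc
Col16a1, chr4:130047590-130047789, plus strand: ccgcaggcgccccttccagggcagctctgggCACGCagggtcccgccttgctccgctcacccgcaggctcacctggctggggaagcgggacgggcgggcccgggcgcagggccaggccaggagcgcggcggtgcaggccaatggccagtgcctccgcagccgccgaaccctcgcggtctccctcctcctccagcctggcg
The cores of Col1a2 begin 131 and 87 bases before the start, that of Col5a1 216 and that of Col16a1 219 bases before it. The other risen genes with a core were Col4a1, Col4a2 and Col6a2. The annotated starts behind the windows of Col4a1 and Col4a2 lie 21 bases apart on opposite strands, and both genes rose in midbrain 13 d.

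In cortex cultures labelled 48 h, 4 of 44 collagen genes (9.09%) rose at 3% O2 and 0 fell, where 6.25% of all probe sets rose and 6.08% fell. By limma's unadjusted p under 0.05 the counts were 9 higher and 0 lower. All 4 were FACIT genes, 4 of the 9 in that class: Col12a1, Col16a1, Col9a3 and Col19a1. The median log2 difference of the 44 genes was 0.08, against 0.00 over all probe sets.

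Col12a1 in cortex 48 h read 10.16, 9.68 and 9.13 at 3% O2 and 7.29, 8.42 and 8.14 at 21% O2. The groups did not overlap, and the widest gap lay between the arrays numbered 1. The rise was 1.71 ± 0.26, or 3.27-fold, with a limma adjusted p of 0.00018. It was 1.13 with an adjusted p of 0.00166 when the number 1 arrays of both oxygen levels were left out, and its adjusted p was 0.0899 in a fit of these 6 arrays alone. Col9a3, a chain of the type IX collagen that coats cartilage fibrils, read 9.28, 8.92 and 8.93 against 8.54, 8.48 and 8.50 and rose by 0.54 ± 0.11 (1.45-fold, adjusted p 0.00213). Col16a1 read 7.95, 7.88 and 7.93 against 7.66, 7.74 and 7.71 and rose by 0.21 ± 0.05 (adjusted p 0.00732). Without the number 1 arrays its difference was 0.18 with an adjusted p of 0.0676. Col19a1 read 6.93, 7.00 and 7.10 against 6.88, 6.86 and 6.66, again without overlap, and rose by 0.21 ± 0.06 (adjusted p 0.0307). The call of Col19a1 was lost in 3 of the 6 fits that leave out 1 array, without the number 2 or the number 3 array at 3% O2 (adjusted p 0.0638 and 0.132) or the number 3 array at 21% O2 (0.202). In the fit of these 6 arrays alone 0 collagen genes passed.

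The 40 collagen genes that did not pass in cortex 48 h ranged from -0.14 for Col4a5 to 0.46 for Col18a1. The groups did not overlap, with 3% O2 above, in 9 of the 44 genes, where this held for 11.4% of all probe sets. The 9 were the 4 called genes and Col3a1, Col5a3, Col4a1, Col6a2 and Col18a1. The number 1 array at 3% O2 was the highest of its group for Col18a1, at 8.34 against 7.65 and 7.60, and for Col4a1, at 7.98 against 7.59 and 7.55. It lay more than 0.3 above both other arrays of its group in 9 of 44 collagen genes and in 7 of 18 pericyte, fibroblast and meninges genes. The share of all probe sets for which this held was not counted. That array differed from the number 2 and number 3 arrays with an SD of 0.2356 and 0.2363, against 0.1298 between those arrays. The part of that array's other genes in these values was not tested.

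In midbrain cultures at 48 h, 0 of 44 collagen genes rose or fell, where 1.19% of all probe sets passed in either direction. At limma's unadjusted p under 0.05, 0 collagen genes were higher and 5 were lower. Differences ran from -0.32 for Col8a2 to 0.36 ± 0.26 for Col12a1, whose adjusted p was 0.558. Col12a1 read 8.48, 7.69 and 7.96 at 3% O2 against 8.02, 7.32 and 7.72, so that each array at 3% O2 lay above the array of its own number, while the groups overlapped. Without the number 1 array at 21% O2, Col6a6 and Col8a2 passed as lower. Col23a1, a transmembrane collagen, read 7.76, 7.67 and 7.70 against 7.89, 8.05 and 8.00, separated with the low-oxygen arrays below, and its -0.27 did not pass (adjusted p 0.0887).

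For several fibrillar chains the arrays of midbrain 48 h differed among themselves. Col1a1 read 8.08, 7.91 and 8.53 at 3% O2 and 7.86, 7.98 and 8.62 at 21% O2. Col1a2 read 7.64, 7.68 and 8.18 against 7.68, 7.71 and 8.58, and Col6a3 read 7.30, 7.40 and 8.30 against 7.09, 7.35 and 8.47. In each case the number 3 array was the highest at both oxygen levels. That array lay more than 0.3 above both others of its group in 6 of 44 collagen genes at 3% O2 and in 12 of 44 at 21% O2. The same held for 6 of 18 pericyte, fibroblast and meninges genes at each oxygen level. The share of all probe sets was not counted here either.

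In cortex cultures labelled 13 d, 0 of 44 collagen genes rose or fell in limma, where 0.607% of all probe sets passed in either direction. At an unadjusted p under 0.05, 1 was higher and 0 were lower. That gene was Col12a1, which read 9.86, 10.02 and 9.96 at 3% O2 and 9.01, 8.87 and 8.96 at 21% O2. Both groups were tight and did not overlap. The difference was 1.00 ± 0.26 with an adjusted p of 0.116, the standard error being shared with groups in which Col12a1 spread more. The Benjamini-Hochberg adjustment is also stricter where few probe sets pass, as in this comparison. In a fit of these 6 arrays alone the standard error was 0.06 and the adjusted p 8.58e-05, and with array weights the adjusted p was 0.00141. All other collagen genes lay at or above -0.13, the value of Col5a2, and below Col12a1. Col18a1 differed by 0.04 with a 95% interval from -0.40 to 0.49.

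Across the 4 oxygen comparisons 27 collagen genes passed in 0, 15 in 1 and 2 in 2 of them. The 2 were Col12a1 and Col16a1. The groups did not overlap, with 3% O2 above, in 17 of 44 genes in midbrain 13 d, 9 in cortex 48 h, 2 in cortex 13 d and 1 in midbrain 48 h. Over all probe sets this held for 18.5%, 11.4%, 6.94% and 7.84% in the same order. With 3% O2 below, the groups did not overlap in 1, 0, 1 and 2 collagen genes, against 22%, 11.3%, 10.6% and 10.9% of all probe sets.

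Whether the response to oxygen itself differed was tested as a difference of differences. Between the midbrain times, 7 of 44 collagen genes (15.9%) had a higher response at 13 d than at 48 h and 0 a lower one, where 6.86% and 8.24% of all probe sets did. By limma's unadjusted p under 0.05 these counts were 15 and 0, without a background at that cut-off. The 7 were Col12a1 at 2.53 ± 0.37 (adjusted p 0.000104), Col18a1 at 1.61 ± 0.30 (0.00101), Col16a1 at 0.39 ± 0.07 (0.000719), Col1a1 at 0.70 ± 0.23, Col3a1 at 0.63 ± 0.20, Col6a2 at 0.53 ± 0.16 and Col5a1 at 0.33 ± 0.10. Over 12 fits that leave out 1 array the calls of Col12a1, Col18a1 and Col16a1 were lost in 0, and those of the other 4 in 7 to 9. With the replicate block 11 passed, the added ones being Col1a2, Col4a1, Col4a2 and Col6a3. The count was 15 without the number 1 array of midbrain 48 h at 21% O2. It was 3 without the number 2 array at 3% O2 or the number 3 array at 21% O2 of midbrain 48 h, or without the number 3 array of midbrain 13 d at 21% O2. It was 4 without the number 1 array of midbrain 13 d at either oxygen level or its number 3 array at 3% O2. A run effect that is equal at both oxygen levels cancels in this difference, and one that is not was not tested.

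Between the cortex times as labelled, 0 collagen genes had a higher response at 13 d and 1 (2.27%) a lower one, where 1.91% and 2.23% of all probe sets did. By limma's unadjusted p under 0.05 the counts were 0 and 3. The gene was Col16a1 at -0.25 ± 0.07 (adjusted p 0.047), whose adjusted p was 0.0566 with the replicate block. Of the 12 arrays of these groups, leaving out 1 at a time kept the call only for the number 1 array of cortex 48 h at 21% O2, where 2 genes passed, and that of cortex 13 d at 21% O2. The difference for Col12a1 was -0.70 with a 95% interval from -1.47 to 0.06 (adjusted p 0.357).

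At 48 h the response was lower in midbrain than in cortex for 3 of 44 collagen genes (6.82%) and higher for 0, where 2.99% and 2.89% of all probe sets were. By limma's unadjusted p under 0.05 the counts were 11 and 0. The genes were Col12a1 at -1.35 ± 0.37 (adjusted p 0.034), Col9a3 at -0.59 ± 0.15 (0.026) and Col16a1 at -0.35 ± 0.07 (0.00564). Only Col16a1 passed without the number 3 array of midbrain 48 h at either oxygen level, the number 1 array of cortex 48 h at 3% O2 or its number 3 array at 21% O2. The count was 6 without the number 1 array of midbrain 48 h at 21% O2 and 5 without the number 1 array of cortex 48 h at 21% O2. Without both number 1 arrays of cortex 48 h the difference for Col12a1 was -0.77 (adjusted p 0.0945), and without both number 3 arrays of midbrain 48 h it was -1.30 (0.105) and that of Col9a3 -0.49 (0.121). In a fit of these 12 arrays alone 0 passed. With the cortex times crossed, midbrain 48 h against cortex 13 d, 0 passed as well, and Col12a1 gave -0.65 (0.732), Col9a3 -0.19 (0.836) and Col16a1 -0.10 (0.821). At 13 d the response was higher in midbrain for 3 genes (6.82%) and lower for 0, where 6.71% and 6.8% of all probe sets were, so the members' share was near the background. By unadjusted p the counts were 12 and 0, again without a background at that cut-off. The genes were Col12a1 at 1.88 ± 0.37 (adjusted p 0.00164), Col18a1 at 1.46 ± 0.30 (0.00246) and Col16a1 at 0.30 ± 0.07 (0.00711). With the replicate block 10 passed, and 7 passed without the number 2 array of midbrain 13 d at 3% O2. With the cortex times crossed, midbrain 13 d against cortex 48 h, Col18a1 alone passed at 1.04 (0.042), while Col12a1 gave 1.18 (0.061) and Col16a1 0.04 (0.828).

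Over all 8 groups the spread of the group means was under 0.5 in 24 collagen genes, between 0.5 and 1 in 16 and over 1 in 4. The 4 were Col12a1 at 3.04, Col18a1 at 1.84, Col5a2 at 1.04 and Col1a1 at 1.03. The highest mean was in midbrain 13 d at 3% O2 for 24 genes, in midbrain 13 d at 21% O2 for 12, in midbrain 48 h at 21% O2 for 4 and in cortex 48 h at 3% O2 for 4. Since midbrain 13 d is a run of its own, its rank is a description. Col12a1 had its highest mean there at 10.73 ± 0.14 (SD) in 3% O2, followed by cortex 13 d at 9.95 ± 0.08 and cortex 48 h at 9.66 ± 0.52 in 3% O2, a pair whose arrays overlapped. The next was cortex 13 d in 21% O2 at 8.95 ± 0.07. The other 4 means lay between 7.69 and 8.04, with overlapping arrays.

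Levels were tested between regions at 48 h and between cortex times, all within run 2. At 21% O2, 8 collagen genes (18.2%) were higher and 5 (11.4%) lower in midbrain 48 h than in cortex 48 h, where 24.3% and 30.5% of all probe sets were, so both shares lay below the background. The split was 6 higher and 8 lower after median centring, and 7 and 6 after quantile normalization. The clearest difference was in Col25a1, a transmembrane collagen of neurons found in amyloid plaques. It read 7.64, 7.96 and 8.07 in midbrain 48 h and 7.11, 7.05 and 6.90 in cortex 48 h, a difference of 0.87 ± 0.11 (limma adjusted p 4.78e-07). The mean of the 10 neuron genes lay between 11.85 and 11.92 in these midbrain arrays and between 9.31 and 9.40 in the cortex arrays, and its part in the Col25a1 difference was not tested. The X-linked Col4a5 read 6.77, 6.99 and 6.89 against 7.20, 7.61 and 7.46, a difference of -0.54 ± 0.09 (adjusted p 5.75e-05). Of the 8 higher genes, Col18a1, Col1a2, Col3a1, Col4a1 and Col24a1 were not called without the number 3 arrays of midbrain 48 h, with adjusted p of 0.202, 0.0698, 0.109, 0.268 and 0.173. With the cortex times crossed, against cortex 13 d, 5 collagen genes passed, 4 higher and 1 lower. The share of all probe sets in this crossed comparison is not given. The higher ones were Col25a1 at 0.69 (2.32e-05), Col4a1, Col4a2 and Col8a1, and the lower one was Col12a1. The other 9 of the 13 calls were lost.

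At 3% O2, 4 collagen genes (9.09%) were higher and 17 (38.6%) lower in midbrain 48 h than in cortex 48 h, where 24.3% of all probe sets were higher and 36.9% lower. The lower share was thus near the background. Among the 17 were 5 fibril-forming and 5 FACIT genes. Col12a1 was lower by the largest amount, at -1.62 ± 0.26 (limma adjusted p 1.67e-05). Col16a1 differed by -0.55 ± 0.05 (7.06e-09), Col9a3 by -0.82 ± 0.11 (1.25e-06) and Col5a2, a chain of type V collagen, by -0.74 ± 0.15 (0.000249). Col28a1, at -0.48, read 7.88, 6.85 and 6.94 in cortex 48 h at 3% O2, and without the number 1 arrays of cortex 48 h its difference was -0.15 with an adjusted p of 0.208. Col25a1 was again higher, by 0.72 ± 0.11 (4.96e-06), as were Col4a2, Col8a1 and Col20a1. Col4a2 was not called without the number 3 arrays of midbrain 48 h (adjusted p 0.0963). Col20a1 was not called without the number 1 arrays of cortex 48 h (0.0516). With the cortex times crossed 10 collagen genes passed, 4 higher and 6 lower, and 8 of the 21 calls were kept. Here too the share of all probe sets is not given. Col12a1 gave -1.91 (5.27e-06), Col9a3 -0.32 (0.0211) and Col25a1 0.64 (4.25e-05), while Col16a1 at -0.10 (0.131) and Col5a2 at -0.01 (0.974) did not pass.

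In cortex at 21% O2, 1 collagen gene (2.27%) was higher and 4 (9.09%) lower at 13 d than at 48 h as labelled, where 16.8% and 20.4% of all probe sets were. The higher gene was Col12a1, at 1.00 ± 0.26 (limma adjusted p 0.00428), and the lower ones were Col4a5, Col11a1, Col5a3 and Col16a1, from -0.40 to -0.20. At 3% O2, 1 (2.27%) was higher and 10 (22.7%) lower, against 17.5% and 24.7% of all probe sets. The higher gene was Col20a1 at 0.20. Col5a2 fell the most, reading 6.82, 6.73 and 6.87 at 13 d and 7.85, 7.30 and 7.45 at 48 h, a difference of -0.73 ± 0.15 (adjusted p 0.000489). Col9a3 at -0.50, Col16a1 at -0.45, Col5a3 at -0.40 and Col5a1 at -0.29 were also lower. Col4a1, Col28a1 and Col20a1 were not called without the number 1 arrays of cortex 48 h, with adjusted p of 0.162, 0.321 and 0.144. Leaving out 1 array at a time ended the call of Col20a1 in 4 of 6 fits.

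The enzymes and chaperones that modify and export collagen chains were read from a list of 21 measured genes. In midbrain 13 d, 15 rose and 0 fell, with a median of 0.77, where 11.2% of all probe sets rose and 12.7% fell. In cortex 48 h, 14 rose and 0 fell, with a median of 0.51, where 6.25% and 6.08% of all probe sets did, but in a fit of the 6 compared arrays alone 1 passed. In cortex 13 d 4 rose, in midbrain 48 h 1 rose and 0 fell in either, with medians of 0.16 and 0.18. The 4 in cortex 13 d became 2 without any 1 of the 6 arrays and with the replicate block, and 7 with array weights. The 1 in midbrain 48 h became 0 in the fit of the compared arrays alone, and 3 with array weights, with the replicate block or without the number 1 array at 21% O2. The gene that rose in all 4 comparisons was P4ha1, a catalytic subunit of collagen prolyl 4-hydroxylase. P4ha1 read 10.44, 9.74 and 9.93 at 3% O2 against 8.99, 8.57 and 8.90 in midbrain 48 h, and 10.65, 10.84 and 10.84 against 9.34, 9.14 and 9.17 in cortex 13 d. These are the groups in which 0 collagen genes passed, and P4ha1 was separated in each of them. Its differences were 1.21 ± 0.16 (limma adjusted p 0.000496) in midbrain 48 h, 0.87 (0.000319) in midbrain 13 d, 0.70 (0.00494) in cortex 48 h and 1.56 (9.8e-06) in cortex 13 d. In cortex 48 h P4ha1 was not called without the number 1 arrays, where its adjusted p was 0.0792. In fits of the compared arrays alone P4ha1 was called neither in midbrain 48 h (0.167) nor in cortex 48 h (0.11).

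Plod2, the lysyl hydroxylase of collagen telopeptides, rose by 1.16 ± 0.13 (limma adjusted p 2.51e-06) in midbrain 13 d, by 1.07 (2.87e-05) in cortex 48 h and by 0.90 (0.000877) in cortex 13 d. In midbrain 48 h Plod2 differed by 0.50 with an adjusted p of 0.0773, which was 0.0369 with the replicate block. P4ha2 rose by 1.00 (0.00381) in midbrain 13 d and by 1.10 (0.0364) in cortex 13 d, where leaving out any 1 array ended the call. Serpinh1, the collagen chaperone HSP47, rose by 0.77 (0.000143) in midbrain 13 d and by 0.44 (0.0305) in cortex 48 h, and gave 0.38 (0.164) and 0.18 (0.897) in midbrain 48 h and cortex 13 d. The call of Serpinh1 in cortex 48 h was lost in 4 of 6 fits that leave out 1 array, without the number 1 or 3 array at 3% O2 (0.119 and 0.053) or the number 2 or 3 array at 21% O2 (0.121 and 0.11), and in the compared arrays alone (0.091). With the replicate block its adjusted p in midbrain 48 h was 0.0162. Creb3l1, a transcription factor that drives collagen secretion genes, read 9.35, 9.38 and 9.32 against 7.74, 7.82 and 8.02 in midbrain 13 d and rose by 1.49 ± 0.13 (1.19e-07). It rose by 1.02 (4.52e-05) in cortex 48 h, where its adjusted p was 0.0781 in the compared arrays alone, and gave 0.10 in midbrain 48 h and -0.00 in cortex 13 d, where it did not pass. P3h4, another gene of the modification and export list, rose by 1.11 (6.78e-07) in midbrain 13 d.

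**Figure D3:**
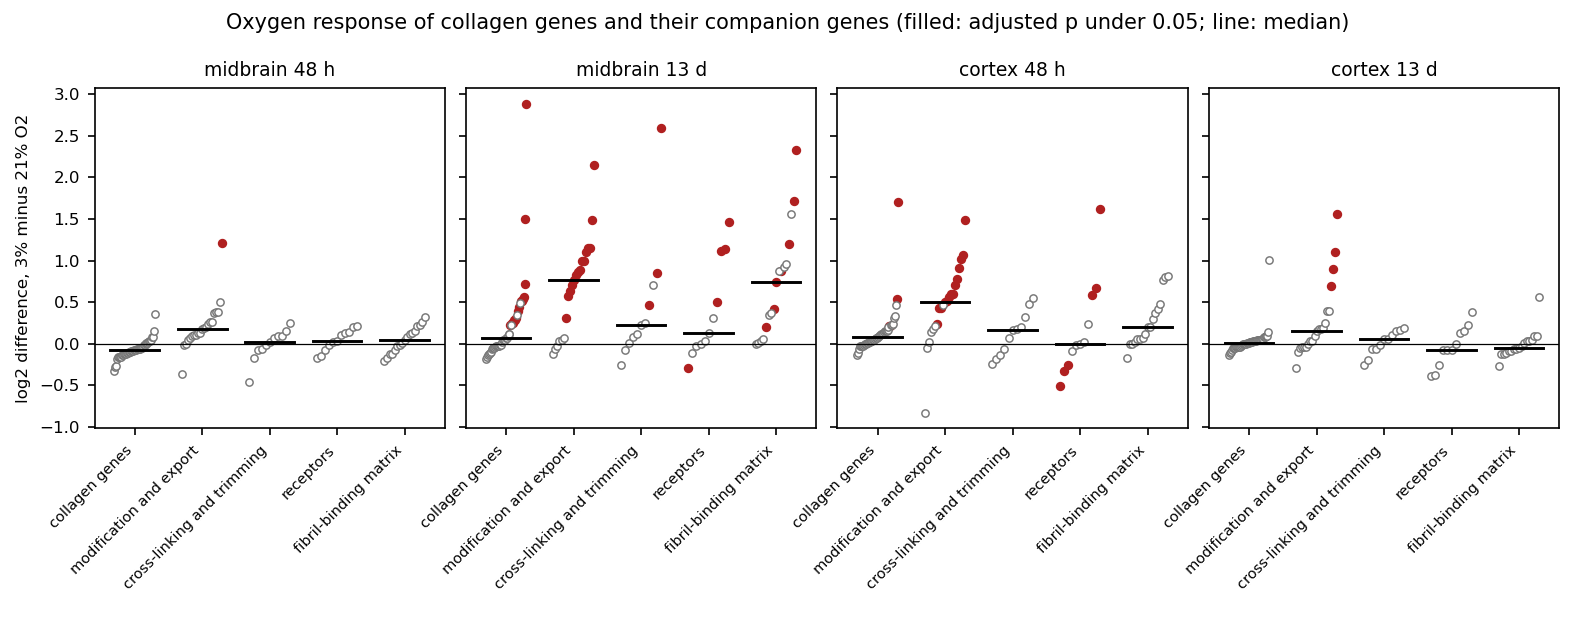
Log2 difference of 3% O2 minus 21% O2 (y axis) for the 44 collagen genes and for lists of 21 modification and export genes, 11 cross-linking and trimming genes, 11 collagen receptors and 17 fibril-binding matrix genes, in the 4 region and time groups. Points are genes and lines medians. The modification and export genes have medians of 0.77 in midbrain 13 d and 0.51 in cortex 48 h, while the collagen genes have medians of 0.07 and 0.08.

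Of 11 genes for cross-linking and trimming, 3 rose in midbrain 13 d, namely Adamts14, Adamts3 and Pcolce, and 0 passed in the other groups, against 11.2% of all probe sets that rose in midbrain 13 d. With array weights 6 passed in midbrain 13 d, and 2 to 4 did over the fits that leave out 1 array. Pcolce is named after its values were seen. Adamts14, a protease that removes the amino-terminal propeptide of fibrillar procollagens, read 10.32, 9.51 and 10.28 at 3% O2 against 7.35, 7.53 and 7.46, and rose by 2.59 ± 0.21 (6.02-fold, limma adjusted p 2.87e-08). Lox, the main cross-linking enzyme, gave -0.46, 0.23, -0.06 and 0.18 in midbrain 48 h, midbrain 13 d, cortex 48 h and cortex 13 d and passed in none in the main fit. Lox passed as lower in midbrain 48 h without the number 3 array at 3% O2 (-0.72, adjusted p 0.0139). With array weights Lox passed as higher in midbrain 13 d (0.37, 0.0179). Adamts14 passed as higher in cortex 48 h with array weights (0.59, 0.00142) and without the number 1 arrays (0.76, 0.00873). Of 11 collagen receptors, 4 rose and 1 fell in midbrain 13 d, and 3 rose and 3 fell in cortex 48 h. Of all probe sets 11.2% rose and 12.7% fell in midbrain 13 d, and 6.25% and 6.08% in cortex 48 h. In the compared arrays alone 3 receptors passed in cortex 48 h, and with the brighter probe sets alone 2 passed in midbrain 13 d. The collagen-activated kinase Ddr2 rose in both, by 1.46 ± 0.16 (1.09e-06) and 1.62 ± 0.16 (1.94e-06). Mrc2, an endocytic receptor that takes up collagen fragments, rose by 1.14 (3.09e-07) and 0.67 (0.000411).

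Of 17 matrix genes whose proteins bind collagen fibrils or basement membranes, 7 rose and 0 fell in midbrain 13 d, with a median of 0.75, where 11.2% of all probe sets rose, and 0 passed in the other groups. The count in midbrain 13 d was 13 in the compared arrays alone and 11 with array weights. It was 5 to 7 over the fits that leave out 1 array, and 4 with the brighter probe sets alone. In cortex 48 h the count was 4 with the replicate block. In cortex 13 d it was 2 in the compared arrays alone, 1 higher and 1 lower. The higher one was Fn1 at 0.56 (limma adjusted p 0.00798). In midbrain 13 d Hspg2, the basement membrane proteoglycan perlecan, rose by 0.88 ± 0.10 (limma adjusted p 2.4e-06). Postn, a fibroblast matrix protein that binds type I collagen, read 8.62, 8.10 and 8.76 at 3% O2 against 6.18, 6.15 and 6.17. It rose by 2.33 ± 0.36 (5.01-fold, adjusted p 6.38e-05). In cortex 48 h Postn read 7.91, 6.04 and 6.34 against 6.19, 5.76 and 5.91, high on the number 1 array alone, and its 0.81 did not pass (0.168, but 0.0231 with the replicate block).

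Pericytes, fibroblasts and meningeal cells are the main collagen makers of brain tissue, and 18 of their marker genes other than collagens were measured. Their mean level in midbrain 13 d was 7.50 to 7.79 at 3% O2 and 7.27 to 7.34 at 21% O2, and 7 of 18 rose and 2 fell, the latter being Twist1 and Thy1, named after their values were seen, where 11.2% of all probe sets rose and 12.7% fell. Without the number 1 array at 3% O2, 5 passed in either direction. The risen ones included Postn, Cspg4 at 0.50 (limma adjusted p 0.000924) and Abcc9 at 0.27 (0.000383). These rises were not particular to midbrain 13 d. Abcc9 also rose in midbrain 48 h, by 0.46, and Cspg4 in cortex 48 h, by 0.41. Neither of these 2 was called in the compared arrays alone (0.167 and 0.151). Cspg4 is also a gene of oligodendrocyte precursors. Dcn, a fibroblast proteoglycan likewise chosen after its values were seen, read 10.01, 9.22 and 10.06 against 8.34, 7.83 and 8.44 in midbrain 13 d. Dcn spread widely between arrays of other groups, which enter the same error estimate, and its difference did not pass. Pdgfrb, a defining gene of pericytes, read 7.42, 7.23 and 7.39 against 7.20, 7.11 and 7.18, and its 0.19 did not pass (0.869). Of 12 endothelial genes 2 rose, a share near the 11.2% of all probe sets, Emcn at 1.17 and Flt1 at 1.07, and the mean of the 12 was 6.71 to 6.77 against 6.51 to 6.58. The part of these cell types in the collagen result of midbrain 13 d was not tested.

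In midbrain 48 h the mean of the 18 mesenchymal marker genes was 6.92, 6.91 and 7.51 at 3% O2 and 6.98, 6.86 and 7.46 at 21% O2, highest on the number 3 arrays. Dcn read 7.65, 6.92 and 10.63 against 7.63, 7.18 and 10.89 and Pdgfrb 7.93, 7.79 and 9.33 against 7.66, 7.47 and 9.20 on the same arrays. The collagen genes with a high number 3 array at both oxygen levels were Col1a1, Col1a2, Col3a1, Col4a2, Col6a3 and Col18a1. In cortex 48 h the marker mean was 7.50, 7.07 and 7.16 at 3% O2 and 6.99, 7.29 and 7.21 at 21% O2. Dcn read 8.76, 6.52 and 6.66 against 6.37, 6.80 and 6.46 there, and Pdgfrb 7.16, 6.82 and 6.92 against 6.70, 8.99 and 8.53, so the markers did not agree on which arrays were high. In cortex 13 d the mean lay between 6.79 and 6.84 at 3% O2 and between 6.73 and 6.75 at 21% O2, and 0 of 18 passed in the main fit. Pdgfra passed there as higher, by 0.72, in the compared arrays alone (limma adjusted p 0.0125) and with the replicate block (0.0425). With array weights its difference was 0.735 (0.0375). No marker reads 0 on this normalized scale, so absence of a cell type cannot be read from it.

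**Figure D4:**
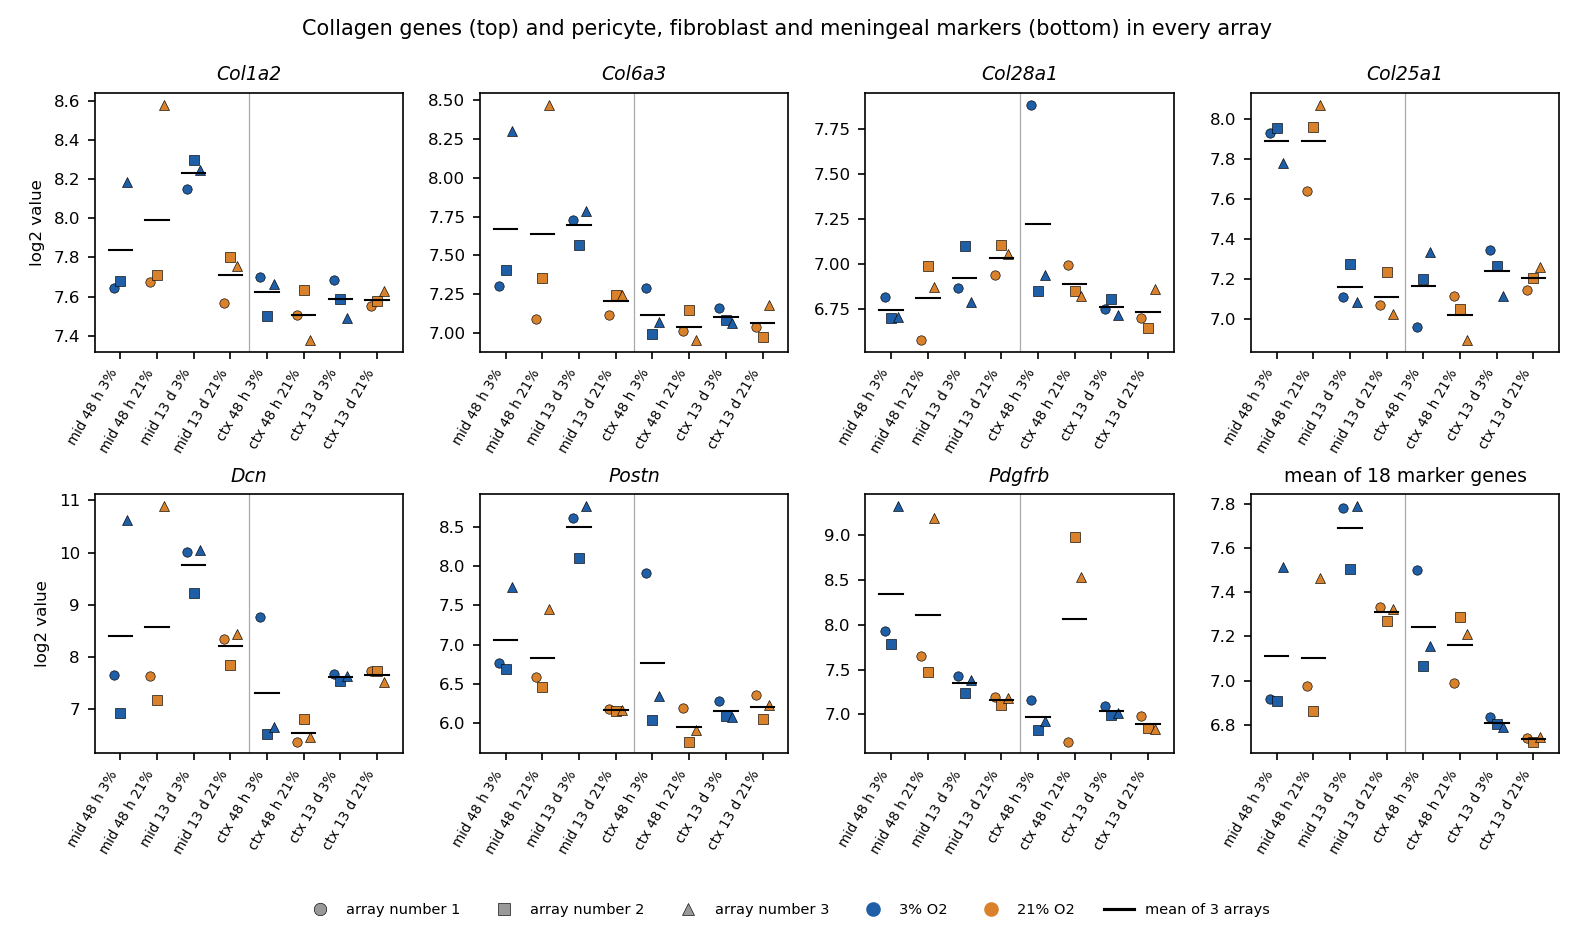
Log2 expression on each of the 24 arrays (y axis) in the 8 groups (x axis) for Col1a2, Col6a3, Col28a1 and Col25a1 (upper row) and for Dcn, Postn, Pdgfrb and the mean of 18 pericyte, fibroblast and meninges genes (lower row). Blue marks 3% O2, orange 21% O2, the marker shape the array number and the line the group mean. On the number 3 arrays of midbrain 48 h Col6a3 reads 8.30 and 8.47 and Dcn 10.63 and 10.89, above the other arrays of their groups.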

How the data were processed

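Each of the 24 RNA samples was labelled with biotin and measured on its own whole-transcript mouse array, per the labels' protocols. The values used are the authors' deposited log2 values, called normalized per the labels. How background and normalization were handled is not given in those labels. A shift common to all genes of an array would therefore not be visible, and signal over background cannot be read. The number of arrays limits the precision.

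A probe table gave at least 1 symbol for 23410 of 28856 probe sets, of which 21789 had 1 symbol and 1621 several, and 5446 are unnamed here. Members, classes, companion lists and marker lists were chosen with earlier results of these data known. Named genes were all members, the 2 genes of each list with the smallest p in a comparison, and a panel of P4ha1, P4ha2, Plod2, Serpinh1, Lox, Pdgfrb and Postn. Limma 3.58.1 in R 4.3.3 fitted 8 group means to the 24 arrays with 16 residual degrees of freedom and eBayes defaults, two-sided, adjusted within each of 12 comparisons over all 23410 probe sets. The fit was tested on simulated data.

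In midbrain, arrays of the same number in 3% and in 21% O2 departed from their group means together (correlations 0.12, 0.22 and 0.24 at 48 h, and 0.12, 0.42 and 0.31 at 13 d), so the numbers were taken to pair those arrays. This pairing was read from the data, since no label says what a shared number stands for. The main fit left the arrays unpaired, and the numbers entered only through the replicate block, an alternative. The closest 2 arrays of a group differed with an SD of 0.0904, and no arrays were merged. The alternatives tried were all probe sets, 11705 brighter probe sets, quantile normalization, median centring, variance trend with robust moderation, the compared arrays alone, array weights, the mean of a gene's probe sets, the replicate block, crossed cortex times and each array left out. Leaving out the number 3 arrays of midbrain 48 h and the number 1 arrays of cortex 48 h, and crossing cortex times in levels, were added after seeing the data. Probe sets were given no coordinates, since the files name no build. Promoter windows are from RefSeq, assembly GRCm38.p6.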

Additional observations from a re-analysis of the deposited data

Results flagged for a closer look

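Responses to oxygen that differed between groups by the limma test of the difference were read from 14 results. Between the midbrain times, 13 d minus 48 h, the log2 differences were 2.53 for Col12a1, 1.61 for Col18a1, 0.70 for Col1a1, 0.63 for Col3a1, 0.53 for Col6a2, 0.39 for Col16a1 and 0.33 for Col5a1. Between the cortex times as labelled, Col16a1 gave -0.25. Between midbrain and cortex at 48 h, Col12a1 gave -1.35, Col9a3 -0.59 and Col16a1 -0.35. Between midbrain and cortex at 13 d, Col12a1 gave 1.88, Col18a1 1.46 and Col16a1 0.30. Single outlying arrays were not part of this flagging rule. Arrays more than 0.3 above both others of their group were counted separately, and those of midbrain 48 h and cortex 48 h are described above.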

How the results depend on the processing

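Counts of collagen genes are given here in the order of the report. The number of all probe sets that pass can also change with the setting. Shares over all probe sets are given for the main fit only, so counts under the alternatives have no background beside them. With the 11705 brighter probe sets only 12 collagen genes remain, so these counts are out of 12. Of the 12, 6 passed in midbrain 13 d and 2 in cortex 48 h. In the differences between midbrain and between cortex times 4 and 0 passed, and between regions at 13 d 5 did. The level comparisons gave 4, 7, 3 and 4. In fits of the compared arrays alone 0 passed in cortex 48 h, 1 in cortex 13 d, 3 and 0 in the differences between times, 0 and 10 in those between regions, and 7 between regions in level at 21% O2. With array weights 2 passed in midbrain 48 h, 9 in cortex 48 h, 1 in cortex 13 d, 17 and 3 in the differences between times, 13 and 14 in those between regions, and 22 and 12 in the level comparisons at 21% O2. With the replicate block 11 and 0 passed in the differences between times and 10 between regions at 13 d, and the same calls were otherwise kept apart from those named in the report. In cortex the same-numbered arrays did not deviate together throughout (0.29, 0.42 and -0.04 at 48 h, and -0.01, 0.23 and -0.37 at 13 d), and 5 collagen genes passed in cortex 48 h with the block. The single difference between cortex times fell to 0 with all probe sets, quantile normalization, and variance trend with robust moderation. With crossed cortex times 0 passed between midbrain 48 h and cortex 13 d, and 1 between midbrain 13 d and cortex 48 h, and the levels of midbrain 48 h against cortex 13 d, a crossing chosen after seeing the data, gave 5 at 21% and 10 at 3% O2. Without the number 3 arrays of midbrain 48 h, 1 passed between regions at 48 h. The causes were not tested.

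Leaving out 1 array at a time gave 0 to 2 genes in midbrain 48 h, 9 to 13 in midbrain 13 d, 3 to 5 in cortex 48 h and 0 to 0 in cortex 13 d. It gave 3 to 15 and 0 to 2 in the differences between midbrain and between cortex times, and 1 to 6 and 3 to 7 in those between regions at 48 h and 13 d. The levels gave 9 to 17 and 14 to 21 between regions at 21% and 3% O2, and 4 to 6 and 8 to 10 between cortex times. Over the alternatives, the 83 called collagen results and those of Col12a1 in midbrain 48 h and cortex 13 d kept their side of the threshold in 1216 refits, fell below it in 230, rose above it in 2 and reversed in 2. The reversed ones, both with crossed cortex times at 3% O2, were Col11a1 at 0.0291 and Col19a1 at 0.0093, without passing. Of the 445 collagen results that were not called, 84 passed under at least 1 alternative.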
